A study of Homo sapiens with 3 samples.

Results

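Aminoacyl-tRNA synthetases attach each amino acid to its matching tRNA, and so supply the charged tRNAs that ribosomes use. Human cells have a cytosolic set and a mitochondrial set, mostly encoded by separate nuclear genes, and a group of cytosolic enzymes is held together in the multisynthetase complex. When amino acids run short, uncharged tRNAs activate the kinase GCN2 (EIF2AK4), and the transcription factor ATF4 then raises many cytosolic synthetase genes. The genes were chosen by name as a list of 36 synthetases, 20 cytosolic and 16 mitochondrial. Of these, 32 were analysed here, 18 cytosolic and 14 mitochondrial, with 139 of the 31565 polyadenylation sites (pAs) and among 9431 genes. GARS, VARS, TARS2 and VARS2 were not analysed here.

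RKO is an established human cell line from a poorly differentiated colon carcinoma. Its nuclear RNA was sequenced by 3ʹREADS, which reads transcripts at their poly(A) end, at 0 h (labelled baseline) and after 0.5 h and 2 h of recovery from UV irradiation. Each time point has 1 library, so no difference has a replicate check, and each test compares the reads of 2 libraries rather than 2 conditions. Values are RPM, reads scaled to the size of the library. Since 1 read marks the end of 1 transcript fragment, RPM does not grow with gene length. RPM is a share of the library, so a higher value need not mean more transcript if the total of polyadenylated RNA changed. That total is not known here, and rises and falls below are changes of this share. RNA of many cells was read together, so that fewer cells with a transcript and less of it per cell cannot be told apart.

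The 0, 0.5 and 2 h libraries held 433261, 501838 and 438040 reads, and 1 read was worth 2.31, 1.99 and 2.28 RPM. Of 5 epithelial markers, KRT8 had 4, 4 and 26 reads at 0, 0.5 and 2 h, KRT18 had 2, 3 and 4, and EPCAM had 7, 6 and 0. KRT8 was thus highest at 2 h, where EPCAM had no read, and these low counts are a weak check of the label. The other epithelial markers and those of differentiated colon, fibroblasts and blood have no value here. The synthetase genes took 2436, 3268 and 2999 reads, which is 0.562%, 0.651% and 0.685% of the library.

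ATF4 dimers bind the amino acid response element, and the letters TGATGNAA, or TTNCATCA on the opposite strand, stand for its core here. RefSeq promoter windows, from 250 bases before to 50 bases after the gene start (GRCh38.p14), were matched for 28 of the 32 genes, without DARS, LARS, YARS and AARS2. The letters were found in 7 of the 28 windows (25%), against 3.62% of all 35116 windows. They are shown with 10 bases on each side, in capitals, as an element known from several cytosolic synthetase genes.
AARS: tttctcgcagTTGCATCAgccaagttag
CARS: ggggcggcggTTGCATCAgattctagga
IARS: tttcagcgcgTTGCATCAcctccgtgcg
MARS: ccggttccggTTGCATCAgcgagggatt
TARS: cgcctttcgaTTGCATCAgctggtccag
NARS: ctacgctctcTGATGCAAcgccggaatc
YARS2: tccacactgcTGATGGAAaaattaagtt
These stretches lie at chr16:70289676-70289703 for AARS, chr11:3057408-3057435 for CARS, chr9:92293693-92293720 for IARS, chr12:57488054-57488081 for MARS, chr5:33440957-33440984 for TARS, chr18:57621805-57621832 for NARS and chr12:32756077-32756104 for YARS2. MARS and TARS are on the plus strand and the others on the minus strand, and each line reads 5ʹ to 3ʹ along the gene. Of the 15 cytosolic windows 6 held a match, all with the same 8 bases (read on the opposite strand in NARS), and of the 13 mitochondrial windows 1 did. Of 9 matched genes in a list of synthetases known to respond to amino acid shortage, 6 hold them. The motif is known from such genes and was chosen with the results known, so these shares are no test of enrichment. The windows of QARS, SARS and EPRS, described next, do not hold these letters. SARS and EPRS are in that list and QARS is not. An element outside these 300 bases, or with other letters, would have been missed. A match is a description of the sequence, not a site shown to be used in these cells.

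QARS, the glutaminyl-tRNA synthetase of the multisynthetase complex, showed the largest rise in RNA level among the synthetases with at least 20 reads. It had 70, 137 and 186 reads at 0, 0.5 and 2 h, which is 162, 273 and 425 RPM. The level was higher at each later time. At 2 h it was 2.63-fold that at 0 h, with a log2 ratio of 1.39 (95% counting interval 0.99 to 1.81, adjusted p = 1.97e-11, Fisher's exact test). Over 0.5 to 2 h alone the log2 ratio was 0.64 (0.31 to 0.97), and over 0 to 0.5 h it was 0.76 (0.33 to 1.19). Both shorter windows stayed under the log2 ratio of 1 that a call requires. All but 1 of its 393 reads came from 1 pA in the 3ʹ-most exon at chr3:49133365 (hg19).

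SARS, the seryl-tRNA synthetase, rose as well, with 72, 91 and 158 reads over the same times. These are 166, 181 and 361 RPM, so that the 2 h library stood above both others. The ratio of 2 h to 0 h was 2.17-fold (log2 1.12, interval 0.71 to 1.54, adjusted p = 6.27e-07, Fisher's exact test). Its log2 ratio for 2 h over 0.5 h, 0.99 (0.61 to 1.38), lay just under the threshold, with an adjusted p of 3.88e-06 (Fisher's exact test).

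EPRS, which charges both glutamate and proline and belongs to the multisynthetase complex, fell. It had 66, 24 and 26 reads at 0, 0.5 and 2 h, or 152, 47.8 and 59.4 RPM. Both libraries after UV were therefore below the 0 h library. At 0.5 h the level was 3.18-fold lower than at 0 h (log2 ratio -1.67, interval -2.41 to -0.98, adjusted p = 1.49e-05, Fisher's exact test). At 2 h it was 2.56-fold lower (log2 ratio -1.36, interval -2.07 to -0.69, adjusted p = 3.77e-04, Fisher's exact test). From 0.5 to 2 h the log2 ratio was 0.31 (-0.55 to 1.17).

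FARS2, the mitochondrial phenylalanyl-tRNA synthetase, was the other gene called for its level. Its reads all came from 5 intronic pAs, with 4, 0 and 8 reads at 0, 0.5 and 2 h. The 18.3 RPM at 2 h were 3.06-fold the limit of 3 reads that a count of 0 at 0.5 h allows. That fold takes the 8 reads at 2 h as exact and is not a lower bound. The counting interval of the log2 ratio, 2 h over 0.5 h, began at 0.97 and had no upper end. The rise had an adjusted p of 0.0196 (Fisher's exact test). No pA of the 3ʹ-most exon of this gene had a value here, and the 3 intronic pAs read at 2 h differ from the pair read at 0 h.

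In all, 1 of 32 synthetase genes was called for expression between 0 and 0.5 h (EPRS), 1 of 31 between 0.5 and 2 h (FARS2) and 3 of 31 between 0 and 2 h (EPRS, QARS and SARS). The background over all genes was 6.51% in the first window (2.15% up and 4.36% down), 10.2% in the second (5.37% up and 4.83% down) and 12.4% over 0 to 2 h (4.84% up and 7.55% down). The synthetase counts lay near or below that background in each window. A call needs a Benjamini-Hochberg adjusted p under 0.05 over all genes and a log2 ratio beyond 1 or -1, with 0.1 RPM added to each value. The 3 windows share libraries and are not independent of each other. When an edgeR exact test was given an assumed variation between replicates of 0.2, none of these calls held, and QARS came nearest (adjusted p = 0.0656 for 0 to 2 h). The calls thus rest on counting error as the only error.

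**Figure D1:**
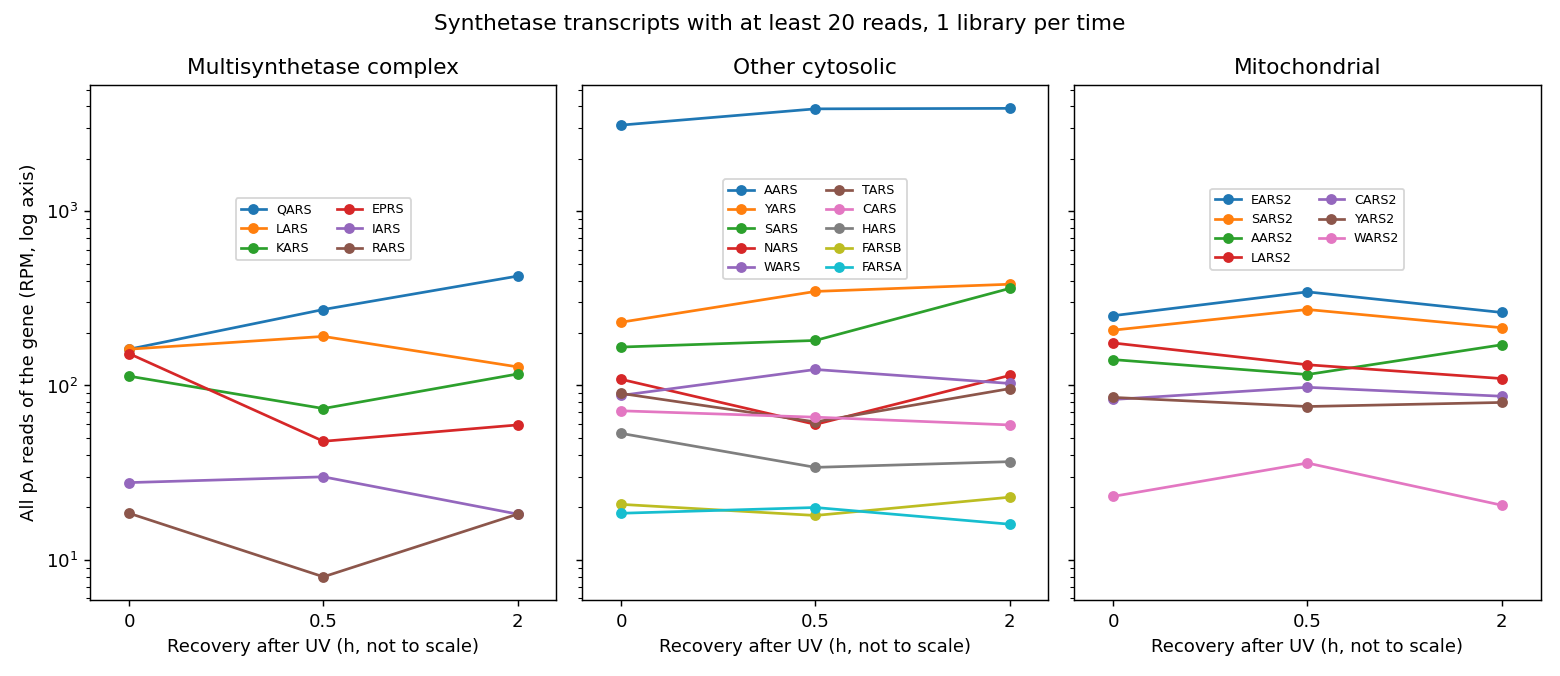
RPM of the 23 synthetase genes with at least 20 reads over the 3 libraries, on a log axis, by hours of recovery after UV. Each line is 1 gene and each point 1 library. AARS stands apart at 3125, 3874 and 3899 RPM, QARS and SARS end at 425 and 361 RPM, and EPRS drops to 47.8 RPM at 0.5 h.

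AARS, the alanyl-tRNA synthetase, was by far the most abundant synthetase transcript. It had 1354, 1944 and 1708 reads at 0, 0.5 and 2 h, or 3125, 3874 and 3899 RPM, between 55.6% and 59.5% of all synthetase reads in each library. Because of this depth its change was measured closely. The log2 ratio was 0.31 (0.21 to 0.41) at 0.5 h and 0.32 (0.22 to 0.42) at 2 h, both relative to 0 h. Both adjusted p-values passed the threshold (7.00e-08 and 3.50e-08, Fisher's exact test), at a fold of only 1.24 and 1.25.

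YARS, the tyrosyl-tRNA synthetase, had the next most reads over the 3 libraries together, with 100, 174 and 167 reads at 0, 0.5 and 2 h (231, 347 and 381 RPM). Its log2 ratio was 0.72 (0.36 to 1.10) for 2 h over 0 h, with an adjusted p of 9.08e-04 (Fisher's exact test) and a fold under the threshold. EARS2 and SARS2, the mitochondrial enzymes for glutamate and serine, were the most abundant of the mitochondrial set. EARS2 had 252, 345 and 263 RPM and SARS2 had 208, 273 and 215 RPM at 0, 0.5 and 2 h. Both were highest at 0.5 h, and at 2 h their log2 ratios to 0 h were 0.06 (-0.33 to 0.45) and 0.05 (-0.39 to 0.48). At 2 h the levels of QARS, YARS and SARS lay between 361 and 425 RPM, above every other synthetase apart from AARS.

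NARS, the asparaginyl-tRNA synthetase, had 108, 59.8 and 114 RPM at 0, 0.5 and 2 h. KARS, which serves both the cytosol and mitochondria, had a similar course with 113, 73.7 and 116 RPM. Both were lowest at 0.5 h, and neither was called in any window. From 0.5 to 2 h the log2 ratio was 0.93 (0.25 to 1.64) for NARS and 0.66 (0.02 to 1.31) for KARS. For the remaining genes with at least 20 reads, apart from LARS, AARS2 and LARS2 in 1 window each, the counting interval of the log2 ratio spanned 0 in every window, which leaves changes within those intervals undetectable at this depth.

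Over the 23 genes with at least 20 reads, the median log2 ratio was 0.11 between 0 and 0.5 h, 0.08 between 0.5 and 2 h and 0.05 between 0 and 2 h. Over all 4477 genes with as many reads, the median of the 0 to 2 h window was -0.14. Scaling the libraries by the median of ratios adds 0.09, 0.04 and 0.12 to every log2 ratio of these windows. By group, the median for 2 h over 0 h was -0.18 in 6 genes of the multisynthetase complex, 0.11 in 10 other cytosolic genes and 0.05 in 7 mitochondrial genes. The complex thus held both QARS and EPRS, which moved in opposite directions.

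**Figure D2:**
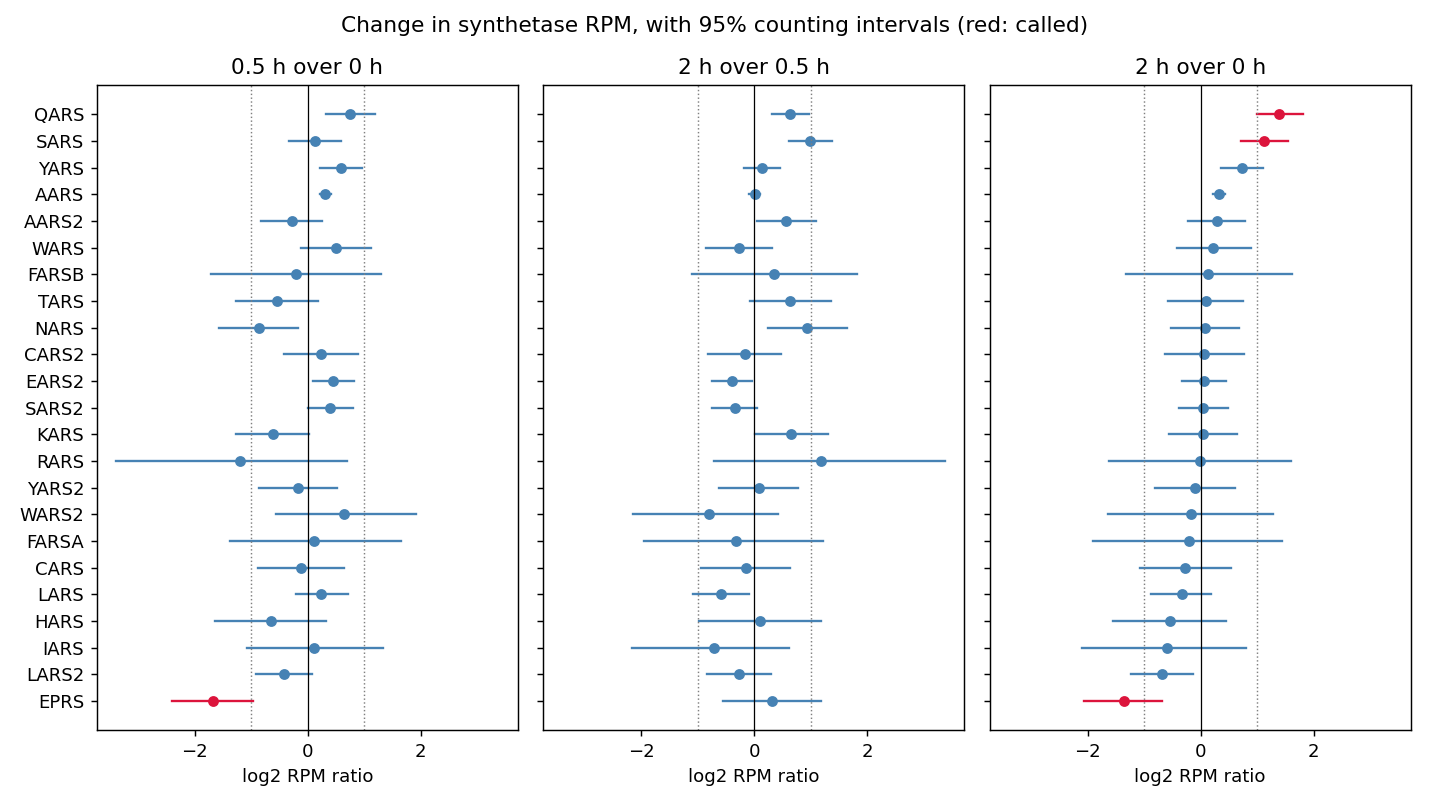
Log2 RPM ratio of the 23 synthetase genes with at least 20 reads in each of the 3 windows, later over earlier time, with 95% counting intervals as lines. Red marks called genes and dotted lines the log2 ratios of 1 and -1. QARS (1.39) and SARS (1.12) lie past the upper line and EPRS (-1.36) past the lower line for 2 h over 0 h, while EPRS alone is called for 0.5 h over 0 h.

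A further 7 genes had under 10 reads in all. PARS2 had 9 reads, HARS2 and RARS2 had 5 each, NARS2 had 4, IARS2 had 3, DARS had 2 and MARS2 had 1. All but DARS, the cytosolic aspartyl-tRNA synthetase, are mitochondrial. HARS2, for histidine, had 5 reads at 0 h and 0 in both later libraries, and was not called. MARS, for methionine, had 16 reads, and no level of these genes could be compared closely.

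Intronic pAs end a transcript early and give truncated RNAs. Most synthetase reads lay in 3ʹ-most exons, and intronic pAs took 30, 42 and 77 reads at 0, 0.5 and 2 h. The intronic share was 1.23% (95% Clopper-Pearson interval 0.83–1.75%), 1.29% (0.93–1.73%) and 2.57% (2.03–3.20%). The intervals cover counting error only. The share was highest at 2 h, where its interval lay above those of both earlier libraries. Of the 77 reads at 2 h, SARS gave 20, YARS2 11 and FARS2 8, and a pooled share also shifts with the mix of genes read. Over all other genes the intronic share was 6.89%, 6.03% and 8.50%. AARS, with 5 intronic reads in all, lowers the synthetase share, and without it the values were 2.77% (1.88–3.93%), 3.17% (2.30–4.26%) and 5.58% (4.39–6.97%).

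More intronic pAs had reads at 2 h than before, in the synthetases as in other genes. Of 49 intronic pAs of synthetase genes, 15, 15 and 31 had reads in the 0, 0.5 and 2 h libraries, or 30.6%, 30.6% and 63.3%. Over all other genes 31.9%, 32.9% and 61.7% of intronic pAs had reads. Of the 31 pAs at 2 h, 24 had no read at the earlier times, and 13 rested on 1 read. Over all other genes 7368 intronic pAs had reads at 2 h, of which 5553 had none earlier and 3257 rested on 1 read. Intronic reads were found in 8, 10 and 19 synthetase genes over the time course. In 9 genes they were found only at 2 h, namely AARS, AARS2, CARS, DARS, IARS, LARS, RARS2, TARS and YARS. The matching counts over all genes were not made, so these gene counts cannot be read as particular to the synthetases.

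**Figure D3:**
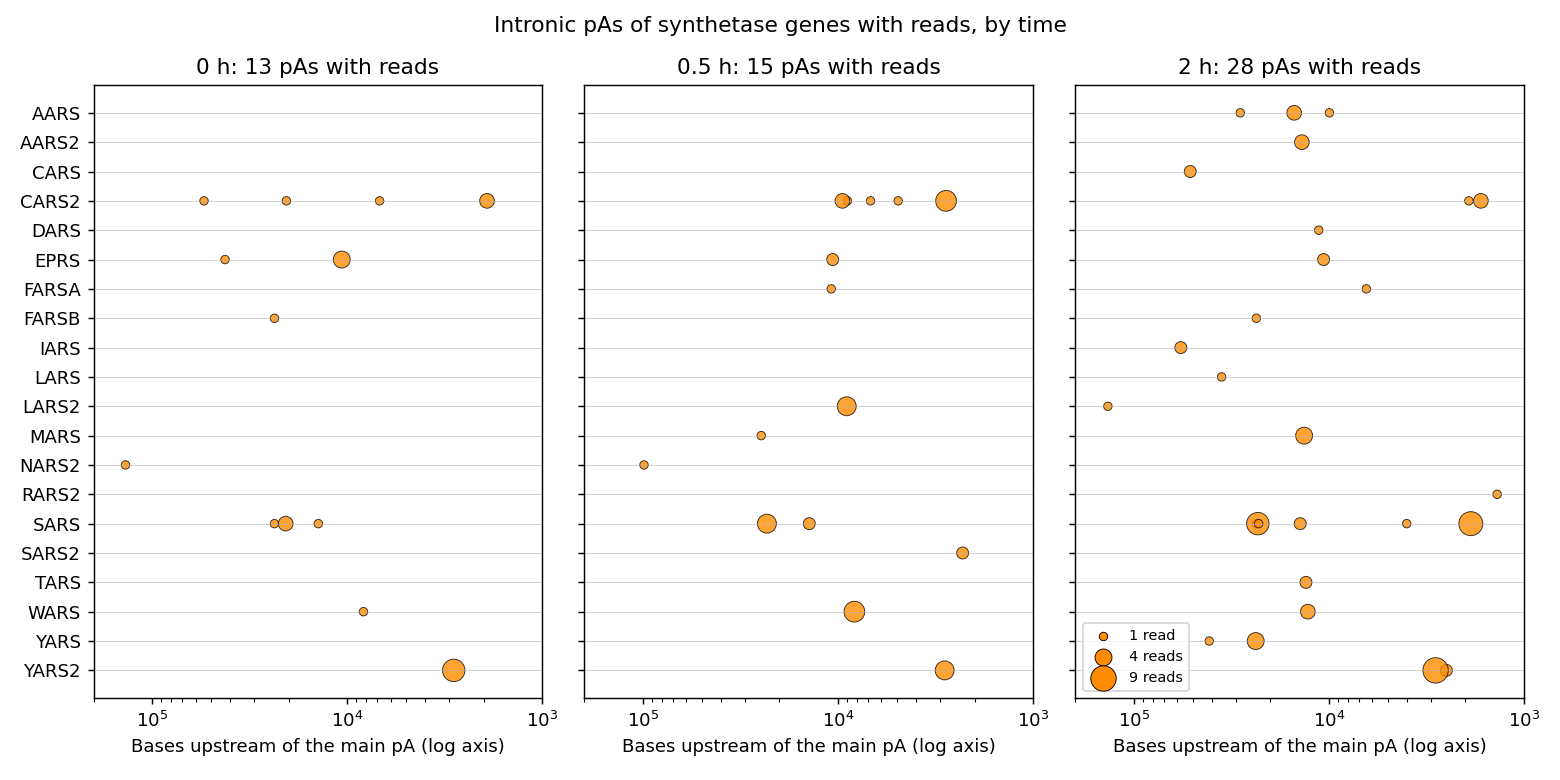
Intronic pAs of synthetase genes with reads in each library, placed by their distance upstream of the most used 3ʹ-most-exon pA of the gene (log axis, in bases). The area of a point is proportional to its reads. The libraries show 13, 15 and 28 pAs in order of time, spread over more genes at 2 h. FARS2 has no 3ʹ-most-exon pA here and is left out.

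SARS had the most intronic reads over the 3 libraries. They numbered 5, 7 and 20 at 0, 0.5 and 2 h, beside 67, 84 and 138 reads in the 3ʹ-most exon, so that the intronic share was 6.94%, 7.69% and 12.7%. Its pA at chr1:109778865 had 8 reads at 2 h and 0 in both earlier libraries. Taken alone against the 3ʹ-most exon, that pA was called between 0.5 and 2 h (p = 0.0286, adjusted p = 0.332, Fisher's exact test). It is 1 of 7 intronic pAs of SARS and has a value only through those 8 reads, so this p-value is no independent support. With all intronic pAs combined, SARS was not called between 0.5 and 2 h (p = 0.291) or between 0 and 2 h (p = 0.256, Fisher's exact test).

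YARS2, the mitochondrial tyrosyl-tRNA synthetase, had a high intronic share throughout, with 7, 5 and 11 intronic reads at 0, 0.5 and 2 h. The share was 19.4% (8.19–36.0%), 13.2% (4.41–28.1%) and 31.4% (16.9–49.3%), and the intervals overlap. CARS2, for mitochondrial cysteine, had 9 intronic pAs, the most of any synthetase gene. Its intronic share was 18.2%, 24.5% and 10.5%, highest at 0.5 h. Of these reads, 6 at 0.5 h lay at chr13:111296562, where the other libraries had 0.

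LARS2, the mitochondrial leucyl-tRNA synthetase, was the only synthetase called for intron-APA with all intronic pAs of a gene combined, a shift between intronic and 3ʹ-most-exon pAs. It had 0, 5 and 1 intronic reads at 0, 0.5 and 2 h, and 76, 61 and 47 reads in the 3ʹ-most exon. Between 0 and 0.5 h the intronic share was higher by 7.58 percentage points (p = 0.0199, adjusted p = 0.354, Fisher's exact test). All 5 reads at 0.5 h lay at 1 pA, chr3:45581287, 9042 bases upstream of the most used pA. This pA had no read at 0 or 2 h, and so has a value only through the 0.5 h library. AARS and YARS each had 5 intronic reads at 2 h and 0 at 0.5 h, but against 1703 and 162 reads in the 3ʹ-most exon the change stayed under 5 percentage points.

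An intron-APA call required p below 0.05 together with a shift of more than 5 percentage points, as did a 3ʹUTR-APA call. In this way 1 of 11 testable synthetases was called between 0 and 0.5 h, 0 of 18 between 0.5 and 2 h and 0 of 18 between 0 and 2 h, against 9.34%, 17.7% and 17% of all testable genes. With adjusted p-values no synthetase was called, against 0.651%, 6.03% and 5.86% of all testable genes. At p under 0.05 alone, AARS and YARS passed between 0.5 and 2 h and none between 0 and 2 h. The intronic share was higher at 2 h than at 0.5 h in 13 of the 18 genes and lower in 5, beside 2467 and 931 of the 3415 testable genes. Relative to 0 h it was higher at 2 h in 16 genes and lower in 2, beside 2652 and 867 of 3548. Testable genes, in the list and overall alike, needed an intronic read in at least 1 of the 2 libraries. A gene with no intronic read in the earlier library could therefore not be counted as lower. Relative to 0 h, these were the 9 synthetase genes with intronic reads only at 2 h, and also FARSA, LARS2 and MARS. Relative to 0.5 h, they were FARSB and the same 9 genes without DARS, which was not testable there.

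3ʹUTR-APA compares the 2 most used pAs of the 3ʹ-most exon. Of the 32 genes, 20 had at least 2 such pAs. WARS, the tryptophanyl-tRNA synthetase, which interferon also induces, moved towards its distal pA. The proximal pA had 9, 4 and 2 reads at 0, 0.5 and 2 h and the distal pA, 687 bases downstream, 27, 52 and 37 reads. The proximal share was 25%, 7.14% and 5.13%, lower in both later libraries. The change was -17.9 percentage points at 0.5 h (p = 0.0289, adjusted p = 0.296) and -19.9 at 2 h (p = 0.0214, adjusted p = 0.228), both relative to 0 h in Fisher's exact test.

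YARS2 moved the same way, over pAs 129 bases apart at chr12:32900087 and chr12:32899958. Its proximal pA had 10, 4 and 0 reads and its distal pA 16, 21 and 22 reads at 0, 0.5 and 2 h. The proximal share was 38.5%, 16% and 0%, where 0 of 22 reads has an upper bound of 15.4%. Between 0 and 2 h this was the only synthetase call left after adjustment over all testable genes (p = 9.11e-04, adjusted p = 0.0325, Fisher's exact test). AARS had an adjusted p of 0.0363 (Fisher's exact test) in that window, but its proximal share was 99.0%, 99.6% and 99.9%, a change under 5 percentage points.

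LARS2 moved towards its proximal pA, at 72%, 81.0% and 88.6% of the reads of the compared pAs at 0, 0.5 and 2 h. Its distal pA had 21, 11 and 5 reads, and the gene was called between 0 and 2 h (p = 0.0397, adjusted p = 0.327, Fisher's exact test). In TARS, the threonyl-tRNA synthetase, the proximal pA had 0, 4 and 1 reads beside 37, 25 and 37 distal reads. The call between 0 and 0.5 h rested on those 4 reads (p = 0.0330, adjusted p = 0.314, Fisher's exact test). The same 4 reads placed this pA among the compared pAs, since a neighbouring pA at chr5:33468062 had 2 reads, both at 2 h. The p-value is therefore not independent of how the pA was picked.

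WARS2, the mitochondrial counterpart of WARS, had 4, 0 and 3 proximal and 4, 16 and 6 distal reads. It was called towards the distal pA between 0 and 0.5 h (p = 0.00659, adjusted p = 0.141) and towards the proximal pA between 0.5 and 2 h (p = 0.0365, adjusted p = 0.249, Fisher's exact test). Both calls share the 0.5 h library, and the other 2 libraries had under 10 reads each at these pAs.

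**Figure D4:**
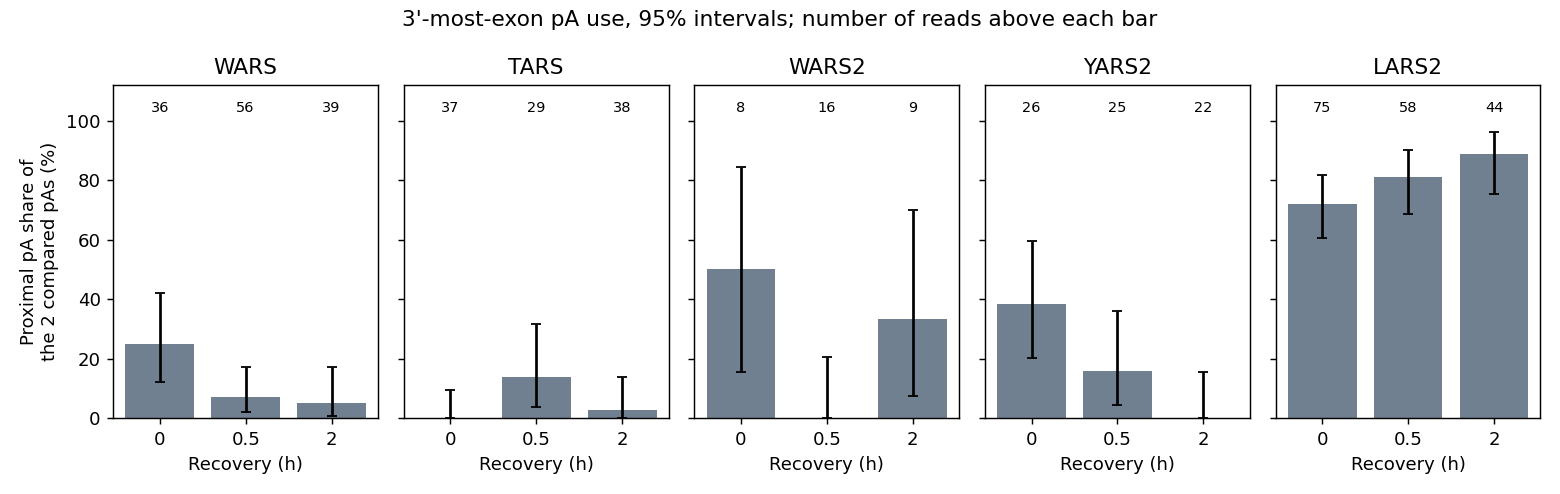
Share of the proximal pA among the 2 compared 3ʹ-most-exon pAs, in percent, for the 5 synthetase genes called for 3ʹUTR-APA, by hours of recovery after UV. Bars are single libraries, lines are 95% Clopper-Pearson intervals and the numbers above are reads. The bars of WARS and YARS2 are highest at 0 h (25% and 38.5%), and those of LARS2 are highest at 2 h (88.6%).

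LARS, the cytosolic leucyl-tRNA synthetase, also linked to leucine sensing, shows how much the choice of pAs matters. Its most proximal pA, at chr5:145493653, had 1, 23 and 4 reads at 0, 0.5 and 2 h, while the most used pA at chr5:145493474 had 55, 64 and 40 reads. The peak at 0.5 h was not tested in the main comparison, since the distal pA at chr5:145492597, with 14, 6 and 9 reads, ranked above it by 1 read in total. When pAs were ranked within the window, the proximal share was 26.4% at 0.5 h, against 1.79% at 0 h (p = 4.96e-05, adjusted p = 0.00634, Fisher's exact test). It was 9.09% at 2 h, against 26.4% at 0.5 h (p = 0.0225, adjusted p = 0.205, Fisher's exact test). This pA entered both comparisons only through its 23 reads at 0.5 h, which the tests then used. These p-values are therefore not independent of how the pA was picked.

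Over the list, 3 of 17 testable synthetases were called for 3ʹUTR-APA between 0 and 0.5 h, 1 of 17 between 0.5 and 2 h and 3 of 19 between 0 and 2 h. Among all testable genes 12.1%, 15.4% and 12.6% were called, and the synthetase counts lay near that background. With adjusted p-values, 1 synthetase was called between 0 and 2 h (YARS2) and 0 in each other window, against 2.07%, 2.72% and 3.42% of all testable genes in the 3 windows.

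Pathway partners of the synthetases were also examined, with 27 of 36 genes in the table. AIMP2, a scaffold of the multisynthetase complex, had 200, 191 and 86 reads at 0, 0.5 and 2 h, or 462, 381 and 196 RPM. It fell over 0 to 2 h, with a log2 ratio of -1.23 (-1.62 to -0.86, adjusted p = 2.29e-10, Fisher's exact test). AIMP1, another scaffold, had 87.7, 77.7 and 84.5 RPM, with no call for its level, and moved towards its distal pA between 0 and 0.5 h (p = 0.0309, adjusted p = 0.303, Fisher's exact test). EEF1E1, the third, was called for a lower intronic share at 2 h, 88.1% against 100% at 0 h (p = 0.0259, adjusted p = 0.184, Fisher's exact test). It had 43, 38 and 37 reads at pAs classed as intronic and 0, 0 and 5 in the 3ʹ-most exon, so the call rested on 5 reads. Whether those intronic pAs give truncated RNAs of this gene was not tested.

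QRSL1, a subunit of the mitochondrial enzyme that makes Gln-tRNA from Glu-tRNA, had 39, 43 and 14 reads and fell at 2 h, with a log2 ratio to 0 h of -1.49 (-2.49 to -0.58). The tRNA splicing endonuclease gene TSEN54 had 32, 10 and 23 reads and fell between 0 and 0.5 h (log2 ratio -1.88, -3.08 to -0.83). Among elongation factor genes listed for the delivery of charged tRNAs, EEF1G had 9, 26 and 7 reads and fell between 0.5 and 2 h (log2 ratio -1.69, -3.15 to -0.45). EEF1D had 7, 5 and 32 reads and rose in the same window. Of the 32 reads of EEF1D at 2 h, 20 lay at upstream-exon pAs and 8 at intronic pAs, and its 3ʹ-most exon had 3, 4 and 4 reads over the time course. TRNT1, which adds the CCA end to tRNAs, moved to its proximal pA between 0.5 and 2 h on 9 reads at 2 h and 13 at 0.5 h at the compared pAs (p = 0.00478, adjusted p = 0.0932, Fisher's exact test).

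The last list covered the sensing of uncharged tRNA and the response to it. There EIF2S1, the target of the kinase GCN2, had 44, 56 and 24 reads and fell between 0.5 and 2 h (log2 ratio -1.02, -1.78 to -0.31). ASNS, the asparagine synthetase gene and a target of ATF4, had 71.6, 63.8 and 84.5 RPM at 0, 0.5 and 2 h and was not called. ATF4 itself had 1 read in all, at an intronic pA at 2 h, and DDIT3 was called for intron-APA on 2 intronic reads at 2 h and 5 other reads at 0.5 h. Together, 1 of 26 partner genes was called for expression between 0 and 0.5 h, 4 of 25 between 0.5 and 2 h and 3 of 26 between 0 and 2 h, with 1 rise and 3 falls in the second window. For intron-APA, 0 of 8, 1 of 9 and 1 of 12 testable partner genes were called in these windows. For 3ʹUTR-APA, 1 of 10, 1 of 10 and 0 of 11 were called. None of these APA calls passed with adjusted p-values. The percentages over all genes are those given for the synthetases.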

How the data were processed

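The authors sequenced nuclear RNA of RKO cells by 3ʹREADS, aligned reads to hg19 with Bowtie2, kept those with at least 2 non-genomic As and deposited 1 table of pAs in RPM (reads scaled to each library). The labels also name CASAVA, and no tool version is given. How pAs were clustered is not given in the sources used here. All 94695 values (100%) were whole multiples of 1 read within 1e-06 reads, so reads were recovered.

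Fisher's exact tests (two-sided, with the study's thresholds for APA and thresholds chosen here for expression) were run on every gene, with Benjamini-Hochberg adjustment over all testable genes, using Python 3.11.15, scipy 1.17.1, numpy 2.4.6, pandas 2.3.3, matplotlib 3.10.9, R 4.3.3 and edgeR 4.0.16. Code was tested on simulated data. Intervals of ratios are exact conditional ones, those of shares Clopper-Pearson, both at 95%, for counting error only, since PCR copies cannot be removed without molecular identifiers. Members and gene lists were chosen with earlier results of these data known. Named genes are those called in any window, the 6 with most reads, those with over 20% intronic reads in a library of at least 20 reads and those under 10 reads. Others are named as examples chosen after their values were seen. Alternatives covered adjustment, minimum reads, pA ranking, thinning, scaling, added RPM, pA class and assumed replicate variation. The sequence motif was chosen with the results known. A pathway partner gene left out of its list and counts is not reported here. Promoters come from RefSeq (GRCh38.p14), pA positions are hg19, and sequence around pAs was not analysed here.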

Additional observations from a re-analysis of the deposited data

How the results depend on the processing

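No paired analysis was possible because each time point has 1 library. Depth is a limit, and 23 of 32 genes had at least 20 reads in all. Counts of called synthetases were within 1.5 times the reported ones under 26 other settings and further away under 16. Of the values of single named genes, 42 kept their direction and call, 15 kept the direction without the call and 1 turned round. The cause of each change was not tested. With adjusted p-values, 3ʹUTR-APA calls numbered 0 instead of 3 (0–0.5 h), 0 instead of 1 (0.5–2 h) and 1 instead of 3 (0–2 h), and intron-APA calls 0 instead of 1 (0–0.5 h). In the 0–0.5 h window, thinning to equal depth gave 0 intron-APA calls, against 8.14% of all testable genes. In the 0.5–2 h window, testing each intronic pA alone gave 2 of 18 (CARS2 and SARS) instead of 0, against 16.8% of all genes. There, 3ʹUTR-APA calls were 0 with at least 10 reads (19.3% of all genes), 2 with pAs ranked within the window (15.2%) and 2 after thinning (14.4%). Expression calls in that window were 2 with median-of-ratios scaling (SARS added, 10.5% of all genes) and 2 after thinning (NARS and SARS without FARS2, 8.35%). They were 0 with 3ʹ-most-exon reads only (10% of all genes), with at least 20 reads (20.2%) and with edgeR (1.56%). With the edgeR exact test, 0 were called over 0 to 0.5 h and 0 over 0 to 2 h, and among all genes 12, 139 and 304 were called, against 573, 908 and 1121. WARS2 turned round between 0 and 0.5 h when pAs were ranked within the window, with a change of 22.2 percentage points in place of -50. Median-of-ratios scaling changed the rises and falls over all genes to 231 and 290 in the 0–0.5 h window (189 and 384 as reported) and to 547 and 540 in the 0–2 h window (438 and 683). Leaving out AARS, an alternative chosen after seeing the data, gave intronic shares of 2.77%, 3.17% and 5.58%.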
